A study of Mus musculus with 16 samples.

Results

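Forkhead transcription factors, the proteins of the Fox gene family, were examined in mouse embryonic stem (ES) cells with and without deletion of Rybp. The members were all genes with a probe set of a single symbol made of Fox, a letter from a to s, a number and at most 1 further letter (a or b). This gave 37 of the 18193 genes measured. They are covered by 82 probe sets, 21 members having several and 16 having 1, and the probe set with the highest mean log2 intensity over all arrays stood for each gene. The rule uses names only, but the family was chosen with earlier results of these data known.

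Forkhead proteins bind DNA through a shared winged-helix domain and are lettered by similarity of that domain. FOXA proteins are pioneer factors that open chromatin for endoderm and liver genes. FOXO proteins are held out of the nucleus by PI3K-AKT signalling, FOXM1 drives genes of mitosis, FOXH1 carries Nodal signals with SMAD2 and SMAD3, and FOXD3 is needed to keep ES cells. Many other members are regulators of single tissues, and such genes are often held silent in ES cells by Polycomb complexes. Rybp is a subunit of variant forms of 1 of these complexes, PRC1.

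Clones 10 and 15 are ES cell lines of a 129/B6 hybrid background, each a single clone. The KO cells received 4-hydroxytamoxifen (OHT) at 800 nM for 24 hours to deplete Rybp, and the untreated cells of the same clones, labelled wild-type control, served as control. Sampling at day 4 and day 12 gave the groups control day 4, KO day 4, control day 12 and KO day 12, with 4 arrays in each and 2 of either clone, numbered 1 and 2. All cells grew in serum with ESGRO, a leukaemia inhibitory factor, on irradiated feeder fibroblasts or on gelatin; which arrays had feeders is not stated. No control received OHT, so its own effects and those of Rybp loss cannot be told apart. Whether arrays of a group came from separate cultures is not stated, so p-values reflect only the scatter among these arrays, part of which may be technical.

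The probe set 1421111_at, annotated to Rybp and its pseudogene, read 2047 to 3434 in control and 84.9 to 255.7 in KO arrays. The other Rybp probe set, 1428219_at, went the other way, at 157.0 to 2771 in control and 2815 to 7612 in KO arrays, with log2 fold changes of 2.82 ± 0.74 at day 4 and 2.95 ± 0.74 at day 12 (limma adjusted p = 0.154 and 0.0518). Which part of Rybp either probe set reads was not examined here, so of these probe sets 1 fits the labels and 1 does not show a loss. All 15 ES cell markers were above the median intensity of the table on every array, while the summed level of 20 feeder fibroblast markers was 9573 to 15822 in control day 4, 9480 to 14521 in KO day 4, 12019 to 18134 in control day 12 and 11575 to 15722 in KO day 12. The arrays also stood apart by their number at day 4. Between arrays numbered 2 and 1 at that day, 28.5% of all 18195 entries tested (the genes and 2 Rybp probe sets) differed at a limma adjusted p under 0.05, against 0.627% between KO and control.

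The promoter letters below come from RefSeq on GRCm38.p6, as 250 bases before to 50 after an annotated start. They are shown for 3 members whose levels changed (Foxp1, Foxa1 and Foxa2) and for 2 that show the range of CpG dinucleotides, the bright gene Foxk2 and the dim gene Foxi1, since CpG-rich promoters are where variant PRC1 is known to bind. Each line is 5′ to 3′ on the gene's strand, and capitals mark CpG. Foxp1 lies at chr6:99028249-99028548 (minus strand), Foxa1 at chr12:57546062-57546361 (minus), Foxa2 at chr2:148045899-148046198 (minus), Foxk2 at chr11:121259737-121260036 (plus) and Foxi1 at chr11:34208040-34208339 (minus). Foxp1 and Foxa2 each have 3 annotated windows, and the one with the most CpG is shown.
Foxp1: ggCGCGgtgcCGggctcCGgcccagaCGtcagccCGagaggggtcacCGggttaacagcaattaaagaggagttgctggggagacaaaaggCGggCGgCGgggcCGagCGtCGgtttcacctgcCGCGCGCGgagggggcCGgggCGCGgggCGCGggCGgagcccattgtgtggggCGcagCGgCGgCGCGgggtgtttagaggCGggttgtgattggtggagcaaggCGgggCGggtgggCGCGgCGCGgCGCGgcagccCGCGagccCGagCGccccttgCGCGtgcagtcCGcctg
Foxa1: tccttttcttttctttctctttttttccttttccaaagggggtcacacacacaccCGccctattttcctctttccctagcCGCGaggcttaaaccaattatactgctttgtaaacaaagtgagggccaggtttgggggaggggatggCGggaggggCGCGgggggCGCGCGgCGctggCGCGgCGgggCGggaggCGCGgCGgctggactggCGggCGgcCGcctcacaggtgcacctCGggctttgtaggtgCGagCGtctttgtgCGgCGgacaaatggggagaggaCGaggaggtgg
Foxa2: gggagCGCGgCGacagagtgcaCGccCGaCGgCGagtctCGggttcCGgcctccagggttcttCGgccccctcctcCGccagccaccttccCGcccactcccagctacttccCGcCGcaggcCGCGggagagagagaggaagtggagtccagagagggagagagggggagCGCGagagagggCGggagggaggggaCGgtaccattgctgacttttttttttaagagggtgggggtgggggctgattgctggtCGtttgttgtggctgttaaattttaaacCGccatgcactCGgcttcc
Foxk2: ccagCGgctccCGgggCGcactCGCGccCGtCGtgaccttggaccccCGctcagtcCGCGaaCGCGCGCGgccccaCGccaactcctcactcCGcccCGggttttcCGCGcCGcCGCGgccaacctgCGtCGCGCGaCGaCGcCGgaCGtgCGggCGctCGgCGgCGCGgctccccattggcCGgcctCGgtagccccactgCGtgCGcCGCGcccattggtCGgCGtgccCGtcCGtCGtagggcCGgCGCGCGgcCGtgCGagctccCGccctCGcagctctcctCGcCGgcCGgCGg
Foxi1: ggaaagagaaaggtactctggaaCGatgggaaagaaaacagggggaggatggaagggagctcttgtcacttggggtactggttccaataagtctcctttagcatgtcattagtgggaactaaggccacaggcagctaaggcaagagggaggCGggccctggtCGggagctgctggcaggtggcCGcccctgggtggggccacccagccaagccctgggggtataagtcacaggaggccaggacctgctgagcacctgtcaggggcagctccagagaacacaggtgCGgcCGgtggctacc

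The shown windows held 44 CpG for Foxp1, 26 for Foxa1, 23 for Foxa2, 59 for Foxk2 and 6 for Foxi1. The windows not shown held fewer, 5 and 13 for Foxp1 and 13 and 12 for Foxa2. Windows were found for 24 of the 37 members, 29 in all, and were averaged within a gene. The median gene of this set had 23.5 CpG per window, against 7 over 27025 genes. Members that were bright on every array had a median of 31 (11 genes) and members that were dim on every array one of 11 (10 genes). The ranges overlapped, since the bright gene Foxn3 had 6 CpG and the dim gene Foxc1 had 32. The forkhead motif TGTTTAC, searched on both strands, was in 1 of the 29 windows, that of Foxa1, and in 3.65% of all 32851 windows. CACGTG was in 1 window, that of Foxd3, and in 7.15% of all. GCGGGAAA and AAGATGG, on either strand, were in 0 of the 29 windows, and in 1.07% and 6.34% of all. A match is a description of letters only.

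Across the 16 arrays the members ranged from clearly detected genes to genes near background. Intensities are the deposited linear values, whose median is 93.3 on every array. A member was called bright where it was above that median on all 16 arrays, dim where it was under it on all 16, and mixed otherwise. Bright members numbered 16 (43.2%), mixed members 7 (18.9%) and dim members 14 (37.8%), against 51.3%, 22.5% and 26.3% of all genes. As a measure of background, 34 genes restricted to adult tissues, such as growth hormone and muscle creatine kinase, had medians from 4.50 to 106.8 (the median gene 24.2), and 25 of them were dim. A dim member is therefore not distinguished here from a gene that is off. Different probe sets bind with different strength, so the order of intensities between genes is not an order of RNA amounts.

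**Figure D1:**
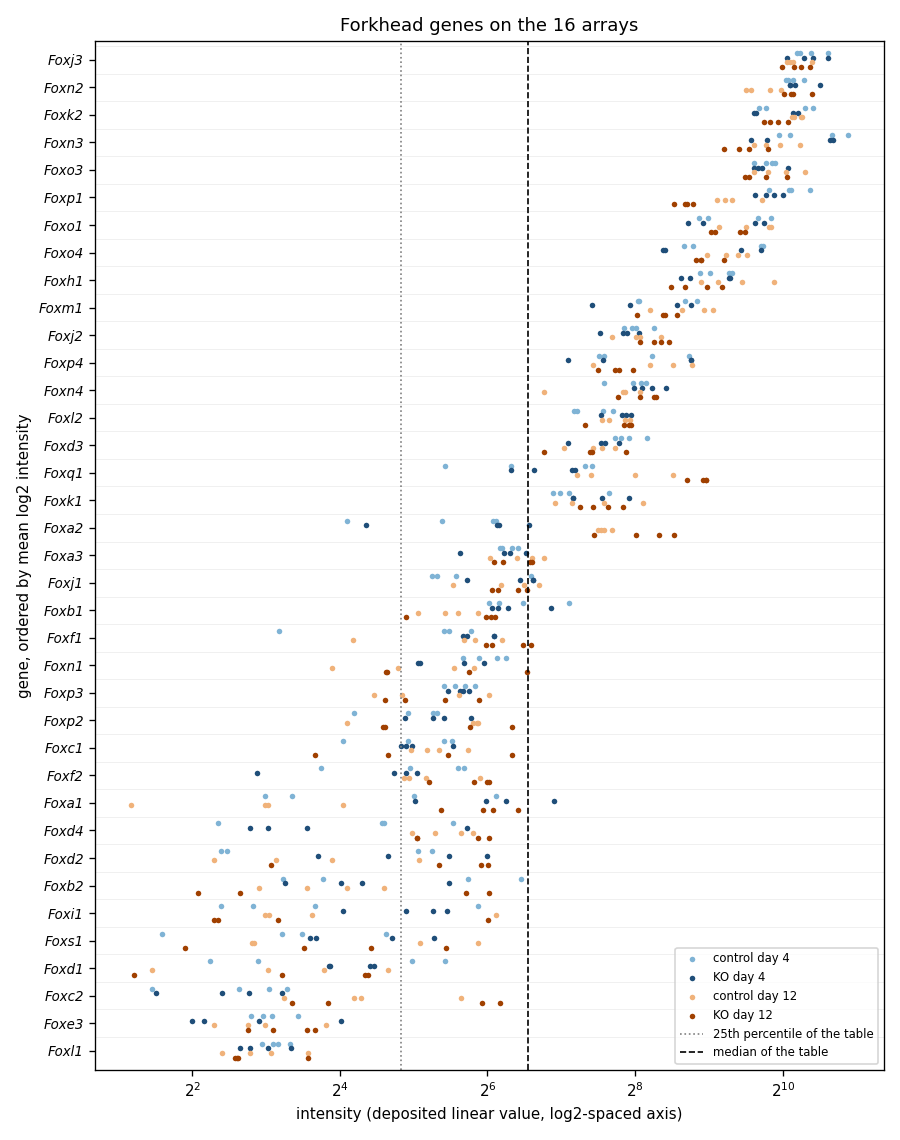
Intensity of the 37 forkhead genes on each of the 16 arrays, on a log2-spaced axis, ordered by mean log2 intensity. Each point is 1 array coloured by group, the dashed line is the table median of 93.3 and the dotted line its 25th percentile of 28.3; 16 genes lie to the right of the dashed line on every array and 14 to its left.

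The bright class held Foxd3, Foxh1, Foxj2, Foxj3, Foxk1, Foxk2, Foxl2, Foxm1, Foxn2, Foxn3, Foxn4, Foxo1, Foxo3, Foxo4, Foxp1 and Foxp4. It thus holds all 3 Foxo genes measured and both Foxk genes. Foxj3, Foxn2, Foxk2, Foxn3 and Foxo3 were above the upper quartile of the table (442.6) on all 16 arrays. Foxl2, known for its role in the ovary, and Foxn4, known from the retina, were in this class too, at 143.8 to 245.8 and 108.4 to 343.6. With the mark moved to the 60th percentile (160.6) the class kept 11 genes and lost Foxd3, Foxk1, Foxl2, Foxn4 and Foxp4.

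The mixed class held Foxa1, Foxa2, Foxa3, Foxb1, Foxf1, Foxj1 and Foxq1. Foxa3, which acts in liver, lay at 49.4 to 109.2 and passed the median on 4 arrays. Foxj1, the regulator of motile cilia, lay at 38.1 to 103.7 and passed it on 4 arrays, Foxb1 at 29.8 to 137.9 on 2, and Foxf1, a gene of lateral mesoderm, at 9.04 to 96.1 on 1. In untreated cells Foxb1, a gene of the neural tube, read 64.7 to 137.9 at day 4 and 33.5 to 58.8 at day 12 without overlap, a log2 difference of -0.95 ± 0.29 that did not pass (limma adjusted p = 0.158).

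The dim class held Foxb2, Foxc1, Foxc2, Foxd1, Foxd2, Foxd4, Foxe3, Foxf2, Foxi1, Foxl1, Foxn1, Foxp2, Foxp3 and Foxs1. Among them are Foxp3, the regulator of regulatory T cells, Foxn1, the regulator of thymic epithelium, and Foxe3, a gene of the lens. Foxe3 and Foxl1 were under the 25th percentile of 28.3 on all 16 arrays, at 4.01 to 16.2 and 5.30 to 11.9. Foxd1 was under it on 14 arrays, Foxc2 on 13, Foxs1 on 12, Foxb2 on 11 and Foxi1 on 10. Foxn1 reached the highest single value of the class, 92.8 on a KO day 12 array. In chromosome order Foxf2 and Foxc1 are the next protein-coding genes after Foxq1 on chromosome 13, and both were dim where Foxq1 was not.

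The first comparison asked which members differed between KO and control cells at day 4. None was called. Among the 37 members 0 passed a limma adjusted p of 0.05, with a background of 0.627% of all entries (0.566% higher and 0.0605% lower), and 2 had an unadjusted p under 0.05 (1554 entries did in all). The median log2 fold change was -0.02 over the members and 0.01 over all entries, and the groups overlapped for every member, where they did not overlap for 5.50% of all entries. In order of p, the members nearest to a call were Foxa1, Foxl2, Foxj1, Foxp1 and Foxd3. For Foxj1 the KO arrays were 0.67 ± 0.32 above control in log2 (limma adjusted p = 0.606).

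Values are given in the order clone 10 number 1, clone 10 number 2, clone 15 number 1, clone 15 number 2. Foxl2 (1456410_at) read 147.9, 188.6, 143.8 and 207.9 in control and 235.8, 227.2, 245.3 and 185.8 in KO cells at day 4. Foxd3 (1422210_at), the ES cell factor, read 224.8, 242.6, 212.4 and 286.8 in control and 185.4, 192.6, 135.8 and 220.6 in KO cells. The log2 fold changes were 0.39 ± 0.18 (SE) for Foxl2 (limma adjusted p = 0.570) and -0.41 ± 0.21 for Foxd3 (limma adjusted p = 0.666). In both genes 1 KO array lay within the control range.

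At day 12 Foxa1 was higher and Foxp1 was lower in KO cells, and no other member passed the threshold. These are 1 of 37 members higher (2.70%) against a background of 2.19%, and 1 lower (2.70%) against 0.901%. The median log2 fold change was 0.02 over the members and 0.01 over all entries. The groups of arrays did not overlap for 5 members (13.5%), Foxa1, Foxp1, Foxn2, Foxq1 and Foxk2, a share near the 12.1% of all entries of which this held. In either direction 3.09% of all entries passed the test.

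**Figure D2:**
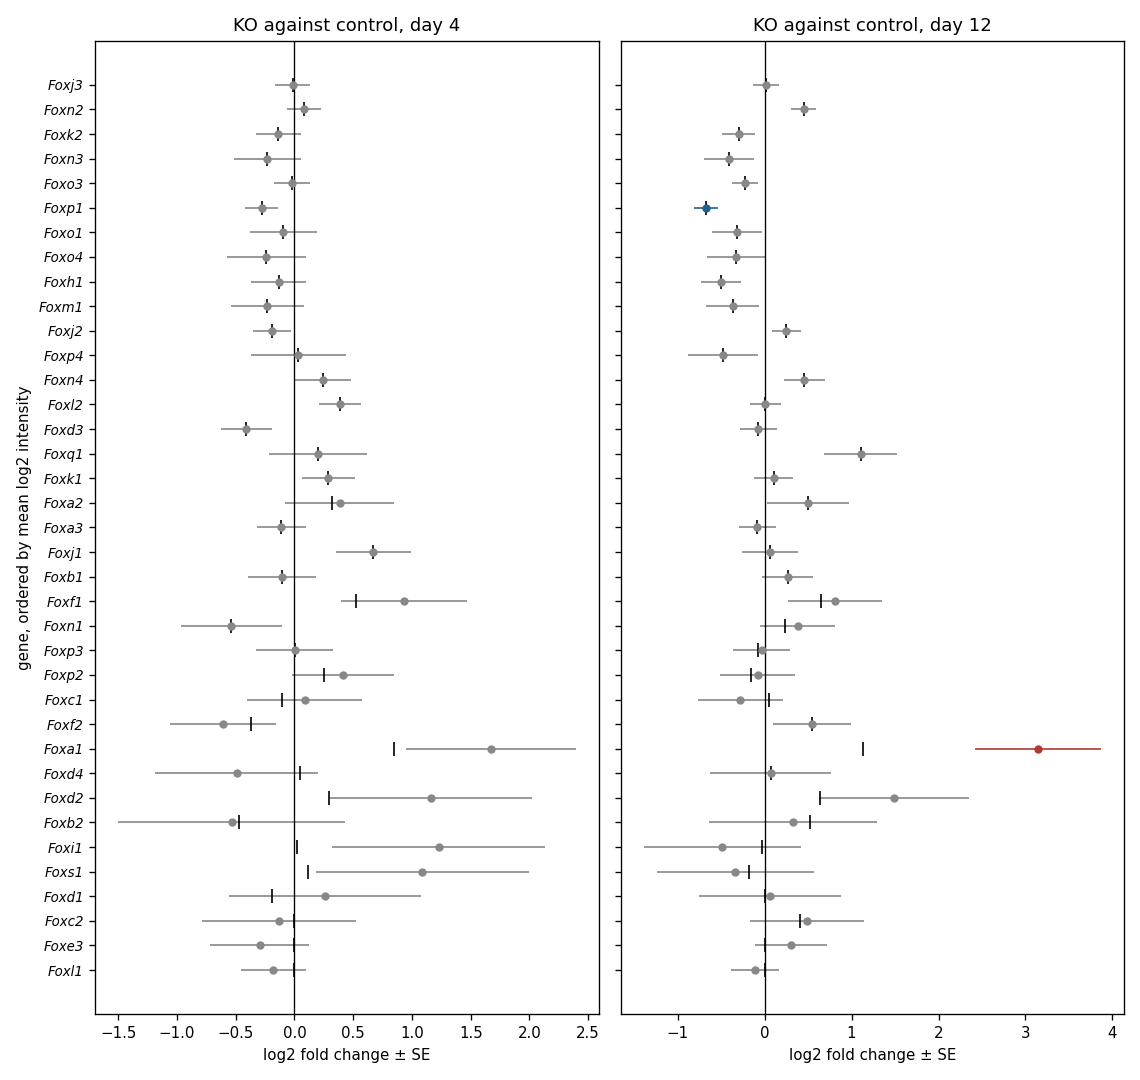
Log2 fold change of KO against control for the 37 forkhead genes at day 4 (left) and day 12 (right), as points with standard errors. Black ticks give the change with every value under 28.3 raised to it, and colour marks the 2 genes past a limma adjusted p of 0.05, Foxa1 (red, higher) and Foxp1 (blue, lower), both at day 12.

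Foxp1 (1435222_at) encodes a repressor of broad expression, of which ES cells are known to make a splice form of their own. It read 1325, 1111, 1085 and 902 in control day 4, and 1024, 940.2, 786 and 877 in KO day 4. At day 12 it read 845, 635, 598 and 555 in control and 368, 418, 409 and 442 in KO cells. The 4 KO arrays of day 12 were the lowest of all 16, and the control arrays of day 12 lay between them and the control arrays of day 4. The group means were 1106 ± 173 (SD, n = 4), 906.9 ± 100.3, 658 ± 129 and 409 ± 30.7 in the order control day 4, KO day 4, control day 12 and KO day 12.

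KO against control, the log2 fold change of Foxp1 was -0.67 ± 0.14 at day 12 (limma adjusted p = 0.0202), a fold of 1.59, and -0.28 ± 0.14 at day 4 (limma adjusted p = 0.634). The difference between these effects was -0.39 ± 0.20 (limma adjusted p = 0.9999). Between the days, Foxp1 fell by 0.75 on the log2 scale in untreated cells (SE 0.14, limma adjusted p = 0.0215) and by 1.14 in KO cells (SE 0.14, limma adjusted p = 9.3e-04). These comparisons share arrays, so they are not separate evidence. The day 12 call was lost without control clone 10 number 1 (limma adjusted p = 0.0598), KO clone 10 number 1 (0.0700) or KO clone 10 number 2 (0.0633), and the fold was -0.90 in clone 10 and -0.44 in clone 15, each alone past no threshold (limma adjusted p = 0.125 and 0.626). The untreated day call was lost without control day 4 clone 10 number 1 (0.0713), clone 10 number 2 (0.0537) or clone 15 number 1 (0.0635), or control day 12 clone 10 number 2 (0.0805), clone 15 number 1 (0.0563) or clone 15 number 2 (0.0793), all as limma adjusted p.

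Foxp1 is measured by 8 probe sets, and all 8 had a KO level estimated under control at both days. Their log2 fold changes ran from -1.03 to -0.23 at day 12 and from -0.91 to -0.01 at day 4. Between the days they ran from -0.75 to -0.05 in untreated and from -1.26 to -0.002 in KO cells. Adjusted over every single-symbol probe set, 1 of the 8 passed at day 12, 1 between the days in untreated cells and 3 in KO cells. These were 1435222_at each time, and in KO cells also 1455242_at (-1.04 ± 0.22, limma adjusted p = 0.0296) and 1421140_a_at (-1.26 ± 0.29, limma adjusted p = 0.0441). Probe sets of 1 gene share their RNA and are not replicates.

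**Figure D3:**
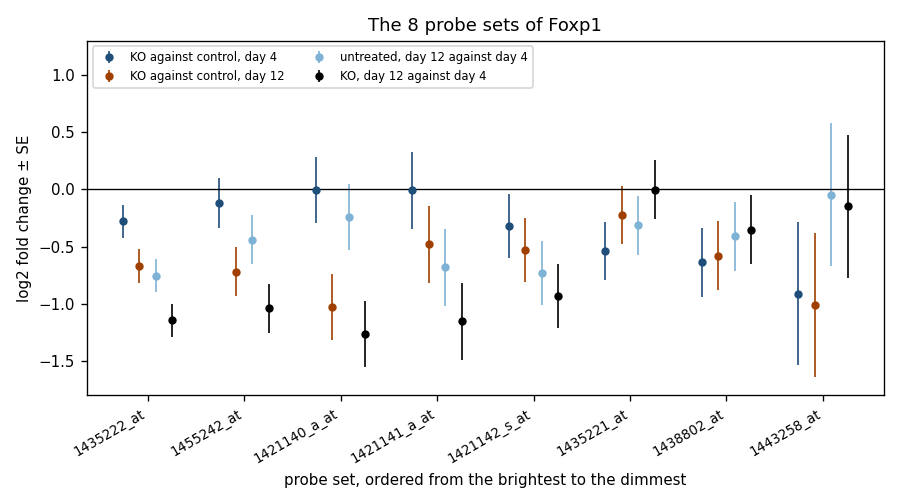
Log2 fold change with standard error for each of the 8 Foxp1 probe sets in 4 comparisons, ordered from the brightest to the dimmest probe set. No point lies above 0, and the decreases between the days in KO cells are near -1 in the 5 brightest probe sets (-1.26 to -0.94) and between -0.35 and -0.002 in the 3 dimmest.

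Foxa1 (1418496_at), the pioneer factor of endoderm, read 8.14, 7.94, 2.26 and 16.4 in control and 67.4, 85.3, 41.4 and 61.5 in KO cells at day 12. Every control array was under the 25th percentile of 28.3, and every KO array was above it and under the median of 93.3. These KO values lie within the span of medians of the adult-tissue genes used as background (4.50 to 106.8). Of all 16 arrays Foxa1 passed the table median on 1, so expression above background is not shown for it. At day 4 it read 7.95, 32.0, 10.2 and 69.3 in control and 32.3, 75.9, 119.6 and 62.9 in KO cells, and there the groups overlapped. The log2 fold change was 3.14 ± 0.72 at day 12 (limma adjusted p = 0.0348), a fold of 8.84 that drops to 2.19 with values under 28.3 raised to it. It was 1.67 ± 0.72 at day 4 (limma adjusted p = 0.530), and the difference of the KO effect between the days was 1.47 ± 1.02 (limma adjusted p = 0.9999). From day 4 to day 12 Foxa1 changed by -1.56 ± 0.72 in untreated and by -0.08 ± 0.72 in KO cells. Neither change passed (limma adjusted p = 0.397 and 0.978 over every probe set).

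With that floor the limma adjusted p of Foxa1 at day 12 was 0.129, and in clone 10 and clone 15 alone it was 0.400 and 0.485. The call was also lost without any of the following arrays of day 12, with the limma adjusted p behind each. These were control clone 10 number 1 (0.0683), control clone 10 number 2 (0.0749), control clone 15 number 1 (0.0847), KO clone 10 number 1 (0.0979), KO clone 10 number 2 (0.0997), KO clone 15 number 1 (0.0622) and KO clone 15 number 2 (0.0798). Foxa1 has a single probe set here.

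Among the bright genes, Foxn2 (1454831_at) came nearest to a call at day 12. It read 1004, 723, 912 and 760.5 in control and 1352, 1032, 1125 and 1111 in KO cells at day 12, with no overlap. At day 4 it read 1053, 1077, 1254 and 1130.4 in control and 1099, 1151, 1099 and 1454 in KO cells, with overlap. The log2 fold change was 0.45 ± 0.14 at day 12 (limma adjusted p = 0.135) and 0.08 ± 0.14 at day 4 (limma adjusted p = 0.986). Its second, dimmer probe set (1441138_at, means of 65.5 to 77.6 in the groups) showed no such difference at day 12, with an estimate of -0.00032 ± 0.23.

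Foxh1 (1422213_s_at), the partner of SMADs in Nodal signalling, read 559, 941, 475 and 697 in control and 505, 581, 359 and 409 in KO cells at day 12. At day 4 it read 638, 469.9, 516.5 and 616.5 in control and 625.4, 393.6, 620.1 and 429.6 in KO cells. Its log2 fold change was -0.50 ± 0.23 at day 12 (limma adjusted p = 0.334), and all 3 of its probe sets had estimates under 0 at both days. Of 20 genes of the Nodal pathway, 0 passed at day 4 and 1 was higher at day 12, against 2.19% of all entries higher at day 12. It was Smad2, higher by 0.49 ± 0.11 on the log2 scale (limma adjusted p = 0.0369). The list's median was 0.02 at day 4 and -0.15 at day 12.

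Foxa2 and Foxq1 were called between the days in KO cells, and neither was called in untreated cells. Foxa2 (1422833_at), which acts in endoderm, node and notochord, read 69.1, 17.1, 67.4 and 41.9 in control and 71.3, 20.4, 94.8 and 70.3 in KO cells at day 4. At day 12 it read 185.3, 191.6, 181.4 and 206.5 in control and 367.5, 174.0, 321.5 and 258.7 in KO cells. All 8 arrays of day 12 were above all 8 of day 4, and Foxa2 was the only 1 of the 37 members (2.70%) whose days stood apart in this way, against 2.01% of all entries. The log2 difference was 2.28 ± 0.47 in KO cells (limma adjusted p = 0.0205), a fold of 4.84 (4.46 with the floor of 28.3). In untreated cells it was 2.16 ± 0.47 (limma adjusted p = 0.0509), just outside the threshold, and with that floor it passed (limma adjusted p = 0.0142).

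Foxq1 (1422735_at), a gene of hair, stomach and epithelial cells, read 160.6, 79.7, 170.7 and 43.1 in control and 145.7, 80.1, 141.8 and 99.1 in KO cells at day 4. At day 12 it read 169.3, 364.5, 148.3 and 256.7 in control and 498.2, 416.3, 496.6 and 485.8 in KO cells. The 4 KO arrays of day 12 were the highest of all 16. In untreated cells the arrays numbered 1 read 160.6 and 170.7 at day 4 and 169.3 and 148.3 at day 12. Those numbered 2 read 79.7 and 43.1 at day 4 and 364.5 and 256.7 at day 12. The day difference was 2.06 ± 0.42 in KO cells (limma adjusted p = 0.0191), a fold of 4.18, and 1.16 ± 0.42 in untreated cells (limma adjusted p = 0.224). KO against control at day 12 it was 1.10 ± 0.42 (limma adjusted p = 0.218), without overlap. A second, dimmer probe set, 1438558_x_at, gave 3.43 ± 1.01 between the days in KO cells and passed no threshold (limma adjusted p = 0.115 over every probe set).

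**Figure D4:**
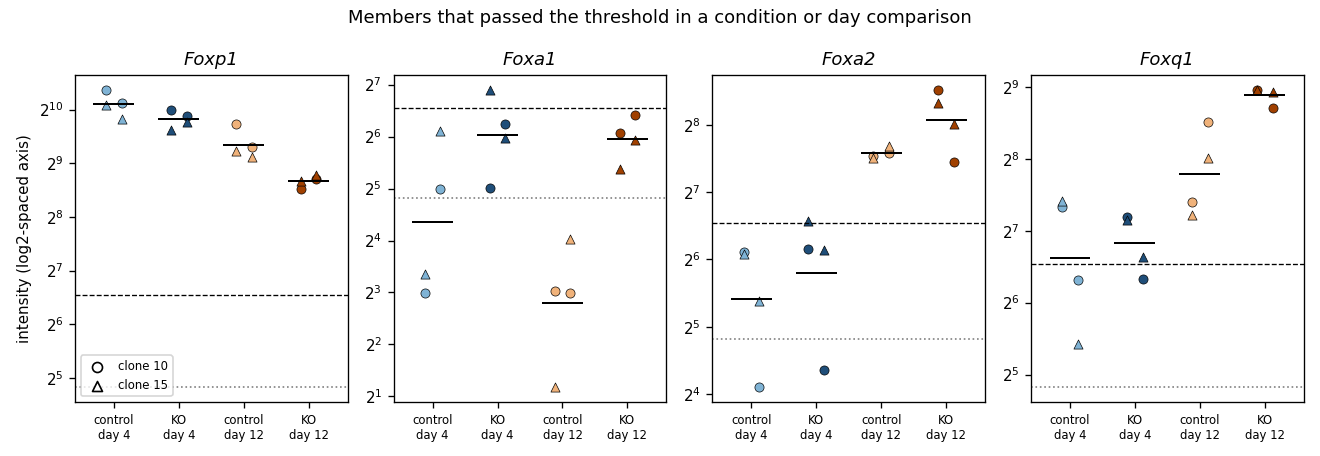
Intensity of Foxp1, Foxa1, Foxa2 and Foxq1 on every array by group, on log2-spaced axes that differ between panels. Circles are clone 10 and triangles clone 15, number 1 stands left of number 2, bars are means of log2 values, and the dashed and dotted lines are at 93.3 and 28.3; Foxp1 is lowest and Foxq1 highest in KO day 12, and Foxa1 is under the dotted line on all 4 control day 12 arrays.

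In all, 2 of 37 members (5.41%) were higher at day 12 than at day 4 in KO cells, against a background of 2.24%, and 1 (2.70%) was lower, against 1.03%; in either direction the background was 3.27%. In untreated cells, where 0.995% of entries differed in either direction, 0 were higher (background 0.654%) and 1 (2.70%) was lower (background 0.341%). The arrays of the 2 days did not overlap for 6 members in KO cells (16.2%, against 11.4% of all entries) and for 5 in untreated cells (13.5%, against 8.33%). The call of Foxa2 in KO cells was lost without KO day 4 clone 15 number 2 (limma adjusted p = 0.0546), KO day 12 clone 10 number 1 (0.0683) or KO day 12 clone 15 number 1 (0.0657). That of Foxq1 was lost without KO day 4 clone 10 number 2 (limma adjusted p = 0.0618) or clone 15 number 2 (0.0586), or KO day 12 clone 10 number 1 (0.0546), clone 15 number 1 (0.0659) or clone 15 number 2 (0.0539). The call of Foxp1 in KO cells was kept without any single array.

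Among the dim members Foxc2, a gene of mesenchyme and vessels, read 2.73 to 9.78 on the 8 arrays of day 4 and 9.47 to 72.3 on those of day 12. Its day difference in KO cells was 2.35 ± 0.66 (limma adjusted p = 0.0776), and 0.61 with the floor of 28.3. Bright members with an unadjusted p under 0.05 between the days and no call were Foxn2 (-0.42 ± 0.14) and Foxd3 (-0.47 ± 0.21) in untreated cells and Foxj2 (0.45 ± 0.16) and Foxn3 (-0.68 ± 0.29) in KO cells, with limma adjusted p from 0.175 to 0.349. A dimmer probe set of Foxn3, 1438255_at, was lower at day 12 in KO cells by -0.74 ± 0.13 (limma adjusted p = 0.0109 over every probe set).

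Markers of primitive endoderm were higher at day 12, as Foxa2 was, and as Foxq1 was in KO cells. Their summed level over 14 genes was 8459 to 14563 in control day 4, 9979 to 16193 in KO day 4, 33539 to 50534 in control day 12 and 47975 to 69419 in KO day 12, and 0 of the 14 were dim. Between the days 10 of 14 were higher in untreated cells (median log2 difference 2.26) and 14 of 14 in KO cells (3.004), where the medians of all entries were 0.02 and 0.02 and 0.654% and 2.24% of all entries were higher. These markers also differed by array number at day 4, where 6 of 14 were lower and 0 higher on arrays numbered 2 (median -0.69), against 17.8% and 10.6% of all entries. KO against control, 1 was higher at day 4 (Serpinh1) and 3 at day 12 (Amn, Serpinh1 and Gata6), against 0.566% and 2.19% of all entries. The estimates of Foxa1 from day 4 to day 12 were -1.56 ± 0.72 in untreated and -0.08 ± 0.72 in KO cells, and neither passed the threshold. In a bulk sample more cells of a type and more RNA per cell cannot be told apart, and the part of these cells in the levels of Foxa1, Foxa2 and Foxq1 was not tested.

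Some genes from a list of endoderm genes around FOXA were called at day 12, and a link to Foxa1 was not tested. Of 20 measured, 11 of which are primitive endoderm markers counted above, 0 passed at day 4 and 3 were higher in KO cells at day 12, against 2.19% of all entries. These were Cdx2, a factor of trophoblast and gut (2.55 ± 0.46, limma adjusted p = 0.0103), Amn, part of an endocytic receptor (1.08 ± 0.20, limma adjusted p = 0.0115), and Gata6, a factor of primitive endoderm (0.98 ± 0.24, limma adjusted p = 0.0483). Cdx2 was dim, at 3.39 to 76.0 over all arrays with a mean of 7.34 in control day 12, and with the floor of 28.3 its difference was 0.69 ± 0.28 and not past the threshold (limma adjusted p = 0.212), which leaves 2 calls. Amn and Gata6 lay above that floor on every array. The list's median was -0.03 at day 4 and 0.69 at day 12. Between the days 9 were higher and 1 (Cdx2) lower in untreated cells (median 1.90), against 0.654% and 0.341% of all entries, and 14 were higher in KO cells (median 2.93), against 2.24%.

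The Foxo genes are the PI3K-AKT-controlled members. Foxo3 (1434831_a_at) read 784, 878, 952 and 928 in control day 4, 812, 1079, 779.9 and 842 in KO day 4, 1267, 1051, 891 and 785 in control day 12 and 877, 1062, 746 and 716 in KO day 12. Its groups overlapped throughout, with log2 fold changes of -0.02 ± 0.15 at day 4 and -0.23 ± 0.15 at day 12 (limma adjusted p = 0.999 and 0.555). Foxo1 (1416981_at) read 920.2, 508.1, 812.5 and 467.9 in control day 4, 857.6, 418.8, 787.4 and 482.8 in KO day 4, 897.0, 918.4, 561.7 and 723.2 in control day 12 and 519.9, 721.5, 684.8 and 543.9 in KO day 12. In each clone and condition of day 4 the array numbered 1 was far above that numbered 2. Foxo4 (1456753_at) read 837.8, 442.1, 848.4 and 404.3 in control day 4, 692.8, 332.7, 838.4 and 337.5 in KO day 4, 598.6, 733.1, 503.9 and 670.2 in control day 12 and 452.0, 588.3, 475.7 and 475.5 in KO day 12. It shows the same split by number at day 4.

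Of 28 FOXO target genes 0 passed the test in either KO comparison, with median log2 fold changes of -0.16 at day 4 and -0.26 at day 12. An unadjusted p under 0.05 was found for 0 of them at day 4 and 6 at day 12. Of all 18195 entries, 1554 at day 4 and 2699 at day 12 had one, and the medians of all entries were 0.01 and 0.01. Of 21 PI3K-AKT genes 0 passed (1 and 4 at unadjusted p), with medians of 0.03 and -0.03. Foxm1 (1448833_at) read 459.3, 262.9, 407.6 and 264.6 in control day 4, 432.9, 171.0, 379.6 and 244.5 in KO day 4, 398.0, 529.6, 295.6 and 490.2 in control day 12 and 259.4, 334.0, 338.0 and 377.8 in KO day 12. Its log2 fold changes were -0.23 ± 0.31 and -0.37 ± 0.31 (limma adjusted p = 0.964 and 0.658), and its 4 probe sets all had estimates under 0 at both days. Of 26 mitotic genes of the FOXM1 programme 0 passed (0 and 3 at unadjusted p), and their medians were 0.01 and -0.01.

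Foxj1 passed in neither KO comparison. Of 19 motile cilium genes 1 was higher at both days, where 0.566% of all entries were higher at day 4 and 2.19% at day 12. It was Ccdc40, a cilium assembly factor (1.14 ± 0.20 at day 4, limma adjusted p = 0.0255, and 0.99 ± 0.20 at day 12, limma adjusted p = 0.0202). Of 15 ES cell markers 0 passed at day 4 and 1 was lower at day 12, against 0.901% of all entries lower at day 12. It was Utf1, a chromatin factor, which fell by 0.82 on the log2 scale (SE 0.18, limma adjusted p = 0.0256). No feeder fibroblast, neural or mesoderm marker passed in either KO comparison.

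The other bright members with the highest intensity are widely expressed. Foxj3 (1435362_at) read 1338, 1167, 1568 and 1205 in control day 4, 1572, 1065, 1362 and 1246 in KO day 4, 1348, 1096, 1129 and 1065 in control day 12 and 1319.8, 1211, 1140.1 and 1019 in KO day 12. Foxk2 (1428353_at), a factor of metabolism and autophagy, read 1363, 871, 1258 and 818 in control day 4, 1186, 799, 1124 and 784 in KO day 4, 1215, 1140.1, 1112 and 1226 in control day 12 and 861, 1076, 982 and 913 in KO day 12. At day 12 every KO array of Foxk2 was under every control array, while the log2 fold change was -0.30 ± 0.19 (limma adjusted p = 0.531). All 5 of its probe sets had estimates under 0 at day 12. Foxn3 (1436925_at), a repressor tied to checkpoints, read 1890, 1098, 1633 and 984.5 in control day 4, 1647, 882, 1591 and 758 in KO day 4, 1209, 785, 997 and 874 in control day 12 and 888, 678, 749 and 592 in KO day 12. Foxp4 (1429719_at), a relative of Foxp1, read 423.5, 191.2, 298.9 and 183.1 in control day 4, 433.0, 189.6, 432.0 and 136.9 in KO day 4, 363.8, 436.2, 172.3 and 293.3 in control day 12 and 180.8, 211.1, 220.2 and 251.3 in KO day 12. None of these 4 passed in a KO comparison.

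At day 4 more members differed by array number than by KO. Arrays numbered 2 were lower in 10 of 37 members (27.03%) and higher in 0, where 17.8% of all entries were lower and 10.6% higher. In either direction 28.5% of all entries differed, a share near that of the members. The 10 were Foxo4, Foxn3, Foxk2, Foxo1, Foxm1, Foxp4, Foxq1, Foxa2, Foxj3 and the dim gene Foxd4. Foxo4 read 692.8 to 848.4 on the 4 arrays numbered 1 and 332.7 to 442.1 on the 4 numbered 2, a log2 difference of -1.09 ± 0.10 (limma adjusted p = 7.4e-05). Foxn3 differed by -0.87 ± 0.08 (limma adjusted p = 9.3e-05), Foxk2 by -0.59 ± 0.08, Foxo1 by -0.85 ± 0.15, Foxm1 by -0.85 ± 0.15 and Foxp4 by -1.18 ± 0.22. These 6 genes, Foxj3 and Foxq1, 8 of 37 members (21.6%), did not overlap between the numbers at day 4, against 27.9% of all entries. At day 12 this held for 0 members and 8.36% of all entries.

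**Figure D5:**
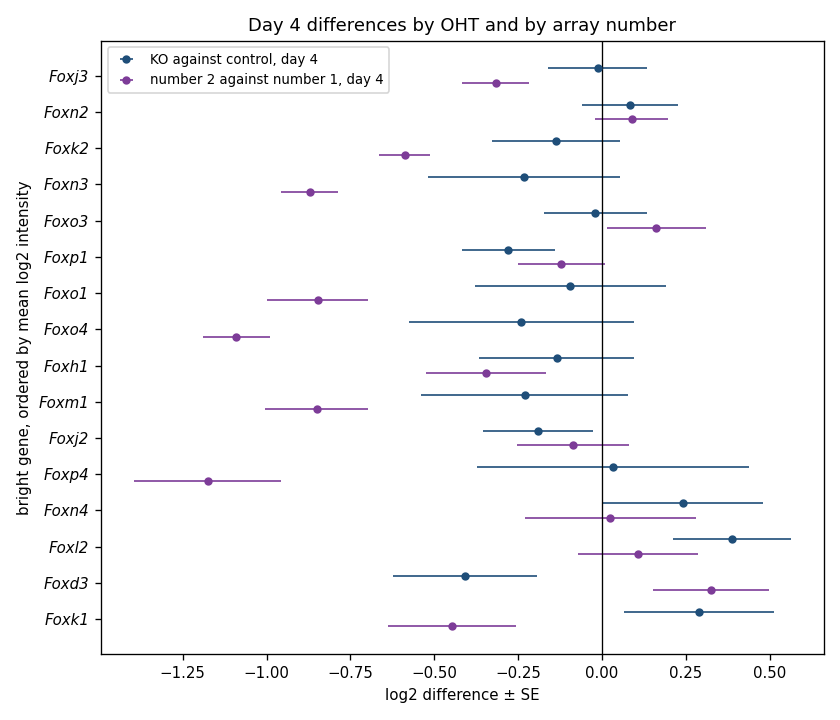
Log2 differences with standard errors at day 4 for the 16 bright forkhead genes, for KO against control (blue) and arrays numbered 2 against 1 (purple). Foxo4, Foxn3, Foxo1, Foxm1 and Foxp4 lie between -1.18 and -0.85 by number, and every gene lies between -0.41 and 0.39 by KO.

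The calls by number were kept for Foxo4, Foxn3, Foxk2, Foxo1, Foxm1, Foxp4 and Foxq1 without any single array. That of Foxa2 was lost without control day 4 clone 10 number 1 or 2 or KO day 4 clone 10 number 2 (limma adjusted p = 0.0556, 0.0583 and 0.0549). That of Foxj3 was lost without control day 4 clone 10 number 2 (0.0934), clone 15 number 1 (0.114) or clone 15 number 2 (0.0532), KO day 4 clone 10 number 1 (0.105), clone 10 number 2 (0.118) or clone 15 number 1 (0.0555), or control day 12 clone 15 number 2 (0.0513). Foxd4 read 5.08 to 64.9 over all arrays, and its call (-1.67 ± 0.56, limma adjusted p = 0.0480) was kept in only 2 of the 16 fits that leave out an array, with a limma adjusted p of up to 0.153 in the others. With the floor its difference was -0.40 (limma adjusted p = 0.338). Each number holds 1 array of every clone and condition at day 4, so the KO and control groups hold both numbers equally. The fit of KO against control has no term for the number, so this split adds to the error of the KO estimates. All 16 arrays share 1 estimate of the spread in these fits, so the split also adds to the errors at day 12 and between the days. The absence of a call in these genes is limited by that error at either day.

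Between the clones 0 members passed in untreated cells, with a background of 0.0660% (0.0385% higher and 0.0275% lower), and 3 had an unadjusted p under 0.05, among them Foxp1, which read lower in clone 15 by an estimate of -0.32 ± 0.14 (limma adjusted p = 0.943). The KO effect differed between clones in 0 members and 0 entries by limma (4 members and 585 entries at an unadjusted p under 0.05), and those 4 members, Foxs1, Foxc2, Foxd1 and Foxe3, were all dim. It differed between the days in 0 members and 0 entries by limma too, with 0 members and 832 entries at an unadjusted p under 0.05.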

How the data were processed

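Gene expression was measured on 16 Affymetrix arrays. The deposited table gives linear intensity for the 45101 probe sets of the Mouse Genome 430 2.0 array (the series' design text names the 430A 2.0). The tools named in the submitters' processing notes are RMA and Affymetrix Expression Console, without versions. The sorted values of all 16 columns are identical, so the arrays were quantile-normalized together before deposit. The intensity was log2-transformed here with no offset. Names came from the platform annotation: 34945 had a single symbol, 932 several and 9160 none, and only the first kind was used. All 37 members matched RefSeq by Entrez identifier.

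Differences were tested with limma 3.58.1 (R 4.3.3) over 18195 entries, modelling group and clone additively, with Benjamini-Hochberg adjustment and a threshold of 0.05. The clone contrasts used a mean per clone and group, and the number contrast used the number nested in day. Errors of log2 values are SE. A floor raised values under the 25th percentile to 28.3. Precision is limited by having only 4 arrays in each group. Within clone and group the median SD of log2 values was 0.75 in dim, 0.70 in mixed and 0.32 in bright members. Over all genes it was 0.999 where the mean was under the table median and 0.227 where it was above the upper quartile.

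Values per array are given for members past the threshold in any comparison, for the 8 with the highest mean, and for the 3 nearest to the threshold in each KO comparison with a group mean above the table median. Foxc2 was added after its values were seen, as were the members named by range or by other probe sets. Genes of the other lists are named where they passed in a KO comparison. The members and lists were chosen with earlier results of these data known. Alternatives were the floor, an offset of 16, leaving out dim genes, every probe set, an intensity trend, only the arrays compared, each clone alone, a block by number, other marks for the classes, and leaving out each array.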

Additional observations from a re-analysis of the deposited data

Results flagged for a closer look

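In 68 sets of 4 arrays (17 named members in each group) 3 held an array far from the other 3, where the gap to the nearest value over the whole range, both of log2 values, was above 0.829. Chance flags about 1 in 20 such sets. Foxl2 read 160.1 on KO day 12 clone 15 number 1, against 231.6 to 245.8 on the others (gap over range 0.862). Foxn2 read 1454 on KO day 4 clone 15 number 2, against 1099 to 1151 (0.836). Foxq1 read 416.3 on KO day 12 clone 10 number 2, against 485.8 to 498.2 (0.859).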

How the results depend on the processing

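The settings moved calls near the threshold and turned the direction of no called member. At day 12 the 1 member higher in KO cells (Foxa1) became 0 with the floor, with every probe set tested (limma adjusted p = 0.0517), with only the arrays compared (0.0655) and in either clone alone. It was 0 as well with dim genes left out, since Foxa1 was then not tested. The 1 member lower (Foxp1) became 0 with only the arrays compared (limma adjusted p = 0.105) and in either clone alone. In untreated cells between the days, the 0 members higher became 1 (Foxa2) with the floor, an offset of 16, dim genes left out or an intensity trend (limma adjusted p = 0.0142 to 0.0207), and the 1 lower became 0 with only the arrays compared. In KO cells the 2 members higher became 1 (Foxq1) with only the arrays compared, where Foxa2 had a limma adjusted p of 0.126. The 7 mixed and 14 dim members became 17 and 4 with the mark at the 40th percentile (59.4). The 16 bright members became 11 at the 60th percentile, where 19 were dim, and 13 with the mean of all probe sets.

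Leaving out each array gave 0 to 1 members higher and 0 to 1 lower in KO cells at day 12, 0 to 1 higher and 0 to 1 lower between the days in untreated cells, 0 to 3 higher and 1 lower in KO cells (the third is Foxc2, without control day 12 clone 15 number 2), and 0 to 1 higher and 7 to 9 lower by number at day 4. The log2 fold change at day 12 ranged from 2.53 to 3.57 for Foxa1 and from -0.75 to -0.57 for Foxp1.

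Whether numbers pair KO with control arrays was checked by correlating the differences between numbers 1 and 2 over genes: r was 0.172 to 0.174 at day 4 and 0.0312 to 0.0525 at day 12, so 2 of 4 were over 0.1 and the numbers were not taken as pairs. With the number as a replicate block (8 pairs), the members at day 12 were 2 higher (Foxa1 and Foxn2, the latter at a limma adjusted p of 0.0391) and 2 lower (Foxp1 and Foxn3), while 852 entries were higher in place of 399. At day 4 the block left 0 members. Over all entries at day 12 the 399 higher became 624 with the floor and 194 with only the arrays compared. Signal over background limits the dim members, whose values under 28.3 have no order.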
